A study of Talinum fruticosum with 36 samples.

Results

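Germin 3 (GER3, AT5G20630) and germin-like protein 1 (GLP1, AT1G72610) were followed in leaves of Talinum triangulare (also named Talinum fruticosum), a herb that shifts to crassulacean acid metabolism (CAM) when water runs short. They are 2 of 21869 Arabidopsis loci to which Talinum leaf reads had been assigned, and both were among the 14052 loci with enough reads to be tested. The pair was chosen by its measured midday level, which was lower on day 9 of drought than on day 0. In that comparison GER3 had the fifth and GLP1 the sixth largest fitted decrease of all tested loci, and the 4 larger ones belonged to loci with at most 2.58 CPM at day 0. Every comparison that uses the midday libraries of day 0 or day 9 is therefore given for the pair as a description, with no test.

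Every plant had 28 days of growth with full watering, and the labels name no line or transgene. Mature leaves were then taken at midnight (6 h into the dark) and at midday (6 h into the light) from plants at day 0 of drought, after 4, 9 and 12 days without water, and 2 days after re-watering that ended a 12-day drought. Each of these 10 groups had 3 biological replicates, which made 30 libraries of polyA RNA. The labels give the CAM mode for days 9 and 12 and C3 photosynthesis for the rest. Since no plants were kept watered to the later days, drought, plant age and sampling day cannot be told apart in a comparison with day 0.

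Germins and germin-like proteins are small secreted glycoproteins of the cupin superfamily that bind a metal ion and sit in the cell wall and apoplast. True cereal germins break down oxalate and release hydrogen peroxide, and several germin-like proteins act as superoxide dismutases. In Arabidopsis, GER3 transcript follows the circadian clock and lies downstream of the glycine-rich RNA-binding protein GRP7, and GLP1 is a close relative of GER3 in the same subfamily.

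The libraries held 4266915 to 8756533 reads over Arabidopsis loci. Levels are counts scaled to library size with trimmed-mean factors (CPM), and they are not divided by gene length, so the level of one gene is compared only with its own level in other libraries. A count of 0 allowed up to 3 reads, or 0.288 to 0.626 CPM on the same scale, depending on the library. This covers counting error only. The third day 0 midnight library lay nearer to the day 4 midnight group (mean r = 0.977 across loci) than to its own (0.963), as did all 3 day 0 midday libraries and the first re-watered midday library (0.978 against 0.964) towards day 4 midday, and the third re-watered midday library had the lowest correlation with its own group (0.962). The third day 0 midnight library and the first and the third re-watered midday library bear on results below and are named there. Changes are log2 fold changes ± standard error, with p-values from edgeR's quasi-likelihood test, adjusted by Benjamini-Hochberg over all tested loci and called under 0.05.

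**Figure D1:**
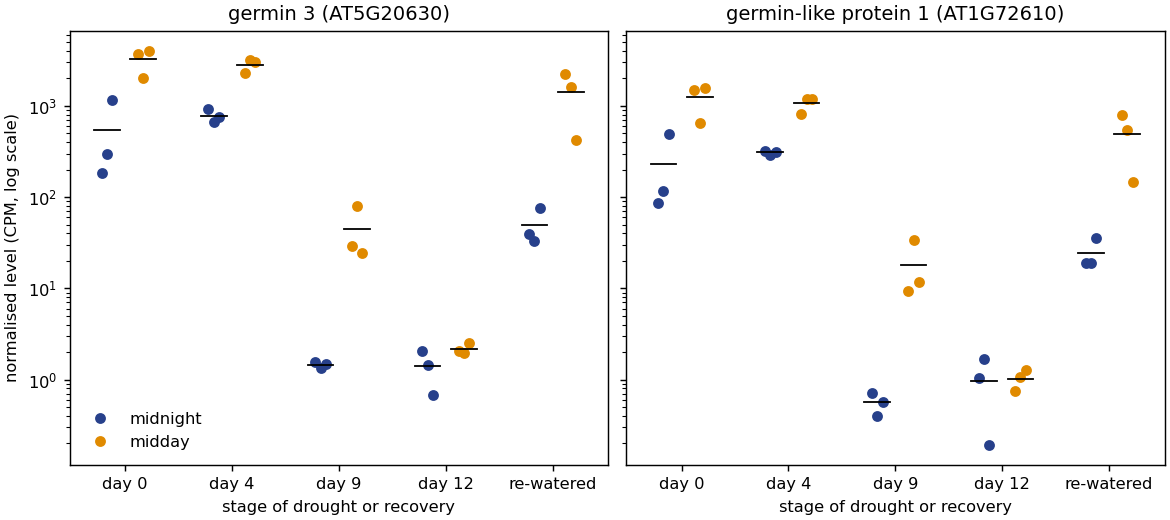
Level of germin 3 (left panel) and germin-like protein 1 (right panel) in each of the 30 libraries, in CPM on a log axis, by stage, with midnight (blue) left of midday (orange) and black bars for the mean of 3 libraries. Every library of days 0 and 4 stands at 87.2 CPM or more, those of midnight on days 9 and 12 at 2.07 CPM or less, and after re-watering all midday libraries lie above all midnight ones.

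At midnight both transcripts nearly vanished between day 4 and day 9. GER3 had 183.0, 297.9 and 1155 CPM in the 3 day 0 libraries, 927.3, 672.1 and 750.2 CPM on day 4, 1.55, 1.34 and 1.49 CPM on day 9, and 2.07, 1.45 and 0.672 CPM on day 12. GLP1 had 87.2, 117.4 and 487.1 CPM on day 0, 322.9, 291.2 and 315.1 CPM on day 4, 0.716, 0.402 and 0.575 CPM on day 9, and 1.04, 1.69 and 0.192 CPM on day 12. The day 9 and day 12 libraries all lay far below every day 0 and day 4 library, and they overlapped each other. The third day 0 library was the highest of its group for both genes. In leaf RNA, fewer cells of a type and less RNA per cell cannot be told apart.

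On day 9 the midnight level of GER3 fell to 1.46 ± 0.109 CPM, against 545.4 ± 531.2 CPM on day 0 (SD, n = 3 each), a log2 change of -8.52 ± 0.82 (edgeR adjusted p = 1.49e-08). GLP1 fell to 0.564 ± 0.157 CPM, against 230.6 ± 222.7 CPM (-8.62 ± 0.90, edgeR adjusted p = 4.70e-08). Of all tested loci, 25.4% were called lower in this comparison. On day 12 the change from day 0 was -8.64 ± 0.83 for GER3 (edgeR adjusted p = 6.58e-09) and -7.94 ± 0.85 for GLP1 (edgeR adjusted p = 3.65e-08), where 29.8% of tested loci were called lower. These low levels rest on few reads, 36 and 35 for GER3 and 14 and 24 for GLP1, summed over the 3 libraries of days 9 and 12. Without the third day 0 midnight library the GER3 changes were -7.34 on day 9 and -7.46 on day 12, and those of GLP1 were -7.44 and -6.77. All 4 were still called. For GLP1 the day 12 value was -8.64 without the second day 12 midnight library, the highest of its group.

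Day 4 showed no called change at midnight. The log2 change from day 0 was 0.52 ± 0.55 for GER3 (edgeR adjusted p = 0.712) and 0.42 ± 0.56 for GLP1 (edgeR adjusted p = 0.772), and 0.185% of tested loci were called in either direction. Without the third day 0 midnight library these values were 1.70 and 1.60 (adjusted p = 0.0622 and 0.0885). The difference between day 12 and day 9 at midnight was not called either, at -0.12 ± 0.97 for GER3 and 0.68 ± 1.29 for GLP1 (edgeR adjusted p = 0.96 and 0.798), where 8.16% of tested loci were called. From day 4, which has no library far from the others at midnight, GER3 fell by 9.16 ± 0.84 and GLP1 by 8.36 ± 0.85 on the log2 scale to day 12 (edgeR adjusted p = 4.25e-09 and 2.27e-08, with 28.1% of tested loci called lower). Without the second day 12 midnight library the GLP1 change was -9.06.

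At midday both genes were at their lowest on day 12. GER3 had 3723, 2000 and 3999 CPM on day 0, 2268, 3158 and 3045 CPM on day 4, 29.1, 80.3 and 24.2 CPM on day 9, and 2.07, 1.96 and 2.54 CPM on day 12. GLP1 had 1507, 644.6 and 1573 CPM on day 0, 805, 1202 and 1183 CPM on day 4, 9.47, 33.6 and 11.7 CPM on day 9, and 0.752, 1.06 and 1.27 CPM on day 12. Days 0 and 4 overlapped, the day 9 libraries lay between them and day 12, and the second day 9 library was the highest of its group for both genes.

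By day 12 the midday level of GER3 was down to 2.19 ± 0.31 CPM, against 2824 ± 484.3 CPM on day 4 (SD, n = 3 each), a log2 change of -10.32 ± 0.86 (edgeR adjusted p = 9.17e-10). GLP1 stood at 1.03 ± 0.261 CPM on day 12, against 1064 ± 224.1 CPM on day 4 (-9.98 ± 0.90, edgeR adjusted p = 2.94e-09). In this comparison 23.8% of tested loci were called lower. The comparison with the day 0 midday libraries, given without a test, had log2 changes of -10.52 for GER3 and -10.20 for GLP1 on day 12, and of -0.20 and -0.22 on day 4. The midnight decrease from day 4 to day 12 was not shown to differ from that at midday, with a difference of 1.16 ± 1.12 for GER3 and 1.61 ± 1.36 for GLP1 (edgeR adjusted p = 0.47 and 0.397, with 31.3% of tested loci called in either direction). The day 12 groups held only 40 reads at midday and 35 at midnight for GER3, and 19 and 24 for GLP1, so this test resolves little. A fit of only the groups compared did call the difference for both genes.

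**Figure D2:**
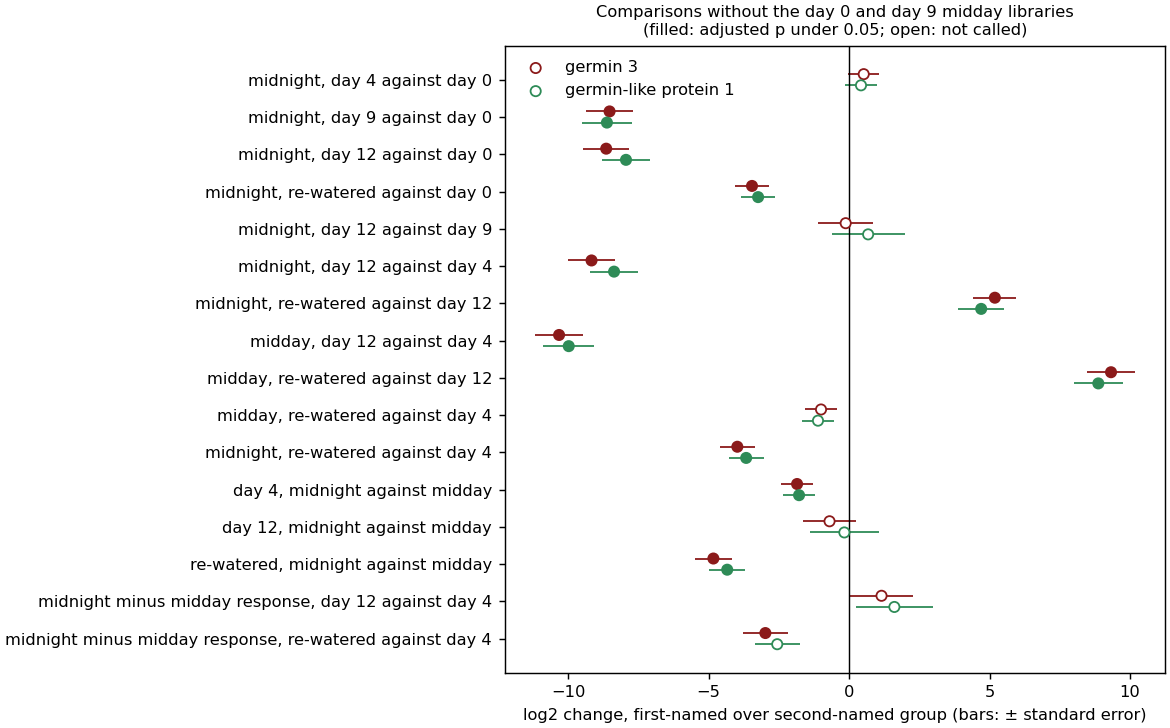
Log2 change of germin 3 (red) and germin-like protein 1 (green) in the 16 comparisons that use neither the day 0 nor the day 9 midday libraries, with bars for the standard error; filled points were called at an adjusted p under 0.05. The decreases to day 12 lie between -10.32 and -7.94, and the rises after re-watering against day 12 are 5.19 and 4.70 at midnight and 9.32 and 8.87 at midday.

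Both transcripts had risen again 2 days after re-watering, with higher levels at midday than at midnight. At midnight GER3 had 39.8, 33.1 and 76.4 CPM and GLP1 had 19.1, 19.0 and 35.2 CPM in the re-watered leaves. At midday the re-watered leaves had 2224, 1597 and 421.9 CPM of GER3 and 786.9, 549.1 and 147.5 CPM of GLP1. The third midday library was the lowest of its group for both genes, and every midday library lay above every midnight one.

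Against day 12, GER3 rose at midnight by 5.19 ± 0.77 and GLP1 by 4.70 ± 0.82 (edgeR adjusted p = 7.82e-06 and 6.75e-05, with 22.3% of tested loci called higher). Without the second day 12 midnight library the GLP1 rise was 5.40. At midday the rise was 9.32 ± 0.84 for GER3 and 8.87 ± 0.88 for GLP1 (edgeR adjusted p = 3.44e-09 and 1.69e-08, with 22.9% called higher). The midnight level stayed below that of day 0, at 9.12% of the day 0 mean for GER3 and 10.6% for GLP1. The log2 changes from day 0 were -3.45 ± 0.61 and -3.24 ± 0.61 (edgeR adjusted p = 0.000539 and 0.00101, with 11.3% of tested loci called lower). Without the third day 0 midnight library they were -2.27 for GER3 and -2.06 for GLP1 (adjusted p = 0.00375 and 0.01), both still called.

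Day 4 gives a second point before the decline, with groups that the choice of the genes did not use. At midday the re-watered mean was 50.1% of the day 4 mean for GER3 and 46.5% for GLP1, and the re-watered libraries all lay below those of day 4. The test called neither gene (-1.0 ± 0.55 and -1.11 ± 0.56, edgeR adjusted p = 0.294 and 0.245, with 5.76% of tested loci called in either direction). At midnight the re-watered mean was 6.35% of the day 4 mean for GER3 and 7.90% for GLP1, and both were called lower (-3.98 ± 0.62 and -3.66 ± 0.63, edgeR adjusted p = 0.000156 and 0.000338, with 13.3% of tested loci called lower). This midnight comparison and the next test were added after the levels had been seen. The midnight change minus the midday change was -2.98 ± 0.80 for GER3 (edgeR adjusted p = 0.0227, with 5.29% of tested loci called lower) and -2.56 ± 0.81 for GLP1 (edgeR adjusted p = 0.05004, not called). The call for GER3 was lost without the first or second re-watered midday library (adjusted p = 0.0506 and 0.0551) and without the first or second re-watered midnight library (0.0553 and 0.0592). Without the third re-watered midday library the values were -3.41 for GER3 and -2.99 for GLP1, with both called (adjusted p = 0.00697 and 0.0186).

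On day 4 and after re-watering both transcripts were lower at midnight than at midday. On day 4 GER3 averaged 783.2 ± 130.8 CPM at midnight and 2824 ± 484.3 CPM at midday (SD, n = 3 each), a log2 difference of -1.85 ± 0.57 (edgeR adjusted p = 0.0111). For GLP1 the levels were 309.7 ± 16.5 CPM at midnight and 1064 ± 224.1 CPM at midday (-1.78 ± 0.57, edgeR adjusted p = 0.0147). Of all tested loci, 19.5% were called lower at midnight on day 4. The trimmed-mean factors on day 4 ran from 0.812 to 0.851 at midday and from 1.123 to 1.175 at midnight, which widens this difference. Scaled to the library total alone (the authors' RPM), GER3 averaged 896.3 at midnight and 2326 at midday, and GLP1 354.7 and 875.7. After re-watering the difference was -4.83 ± 0.65 for GER3 and -4.34 ± 0.64 for GLP1 (edgeR adjusted p = 1.79e-06 and 7.04e-06, with 23.5% called lower). On day 12, when both genes were near the floor, it was -0.70 ± 0.96 and -0.17 ± 1.22 (edgeR adjusted p = 0.562 and 0.919, with 27.5% called lower). The untested differences were -2.57 for GER3 and -2.43 for GLP1 on day 0 and -4.91 and -4.98 on day 9.

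Ordered by mean level, GER3 stood highest at midday on days 0, 4 and after re-watering (3240, 2824 and 1414 CPM), then at midnight on days 4 and 0 (783.2 and 545.4 CPM). Re-watered midnight (49.8 CPM) and day 9 midday (44.5 CPM) came next, and day 12 midday (2.19 CPM), day 9 midnight (1.46 CPM) and day 12 midnight (1.40 CPM) came last. GLP1 had the same order down to day 9 midday, from 1242 to 18.2 CPM, followed by day 12 midday (1.03 CPM), day 12 midnight (0.971 CPM) and day 9 midnight (0.564 CPM). For both genes, neighbours in this order had overlapping libraries from re-watered midday to day 0 midnight, for day 0 and day 4 at midday, and for re-watered midnight and day 9 midday. They did not overlap between re-watered and day 4 midday, between re-watered midnight and day 0 midnight, or between day 9 midday and day 12. Day 9 midnight overlapped with day 12 midnight but not with day 12 midday, while day 12 midday and day 12 midnight overlapped with each other.

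The reads of the pair divided between the loci in ratios that varied little beside the changes in level, but they were not constant. The count of GER3 over that of GLP1 averaged 2.34 ± 0.222 at midnight and 2.71 ± 0.347 at midday on day 0 (SD, n = 3 each). After re-watering it was 2.00 ± 0.23 at midnight (1.74 to 2.17) and 2.87 ± 0.0417 at midday (2.83 to 2.91). Over all 30 libraries it ran from 0.857 to 3.50, and both ends were day 12 midnight libraries with few reads. No test was made of these ratios.

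**Figure D3:**
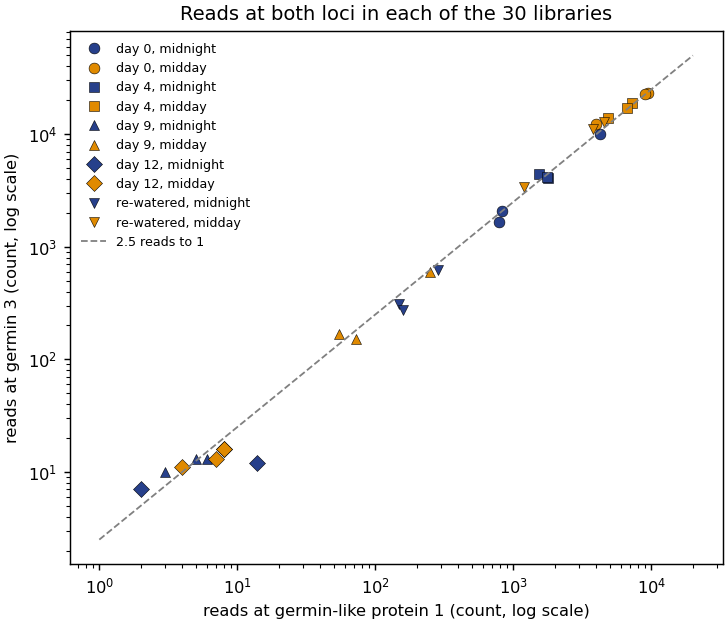
Reads at germin 3 (vertical axis) against reads at germin-like protein 1 (horizontal axis) in each of the 30 libraries, both as counts on log axes, with blue for midnight, orange for midday and a symbol for each stage; the dashed line marks 2.5 reads at germin 3 for 1 at germin-like protein 1. The libraries keep close to that line over the whole range, with the widest scatter on day 12.

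Reads mapped to the assembled Talinum transcripts divided differently. The contig table gives 3 contigs for GER3 and 4 for GLP1, all with the beet annotation Auxin-binding protein ABP19a, a name used for members of the germin-like family. Of those for GLP1, only Tt49228_2 (coding length 633 bases, 211 residues) was above 0, and the other 3 were listed at 0. GER3 had Tt63217 (627 bases, 209 residues), Tt33769 (654 bases, 218 residues) and Tt31109 (666 bases, 222 residues), the last at 1.33 RPM in day 0 leaves at both times. Tt63217 alone held 79.6% of the authors' mean RPM over the pair's contigs at midnight and 83.1% at midday on day 0. GLP1 took 29.8% of the pair's mean RPM at midnight and 27.6% at midday on day 0 in the table of loci, but 12.7% and 6.62% in the table of contigs. The 2 tables thus divide the reads of the pair differently, and the row of a locus cannot be taken as the level of a single Talinum gene.

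The 3 larger contigs were all lower on day 9 and partly back after re-watering. Tt63217 had a mean of 1.33 RPM at midnight on day 9, against 940.3 RPM on day 0, with a log2 change of -8.63 in the authors' deposited table (q = 1.49e-50). Tt49228_2, the GLP1 contig, had 0.333 RPM on day 9, against 150.0 RPM on day 0 (-6.99 and q = 2.31e-23 in the authors' deposited table). Tt33769 had 1.0 RPM on day 9, against 90 RPM on day 0 (-5.95 and q = 5.47e-13 in the authors' deposited table). These 3 deposited log2 changes are smaller in size than the ratios of the printed means. For the loci in the same comparison the authors list -7.18 for GER3 and -6.87 for GLP1, where edgeR gave -8.52 and -8.62. The authors' values are thus not on the same footing as the edgeR ones.

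After re-watering the midday mean of Tt63217 reached 1947 RPM, or 52.5% of day 0, and the authors' deposited table lists a log2 change of -1.03, given without its test. Tt33769 reached 87.7 RPM, or 19.1% of day 0 (-2.31 in the authors' deposited table). Tt49228_2 reached 33.3 RPM, or 11.3% of day 0 (-3.08 in the authors' deposited table). The contig of GLP1 thus stood at a smaller share of its day 0 level than the GLP1 locus. The midday mean of that locus was 414.7 RPM after re-watering, against 932.7 RPM on day 0. With trimmed-mean scaling these locus means were 494.5 and 1242 CPM. At midnight the 3 contigs stood at 8.15%, 13.3% and 16.0% of day 0. Whether the contigs differ from each other in recovery was not tested, since the table holds no values per library.

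**Figure D4:**
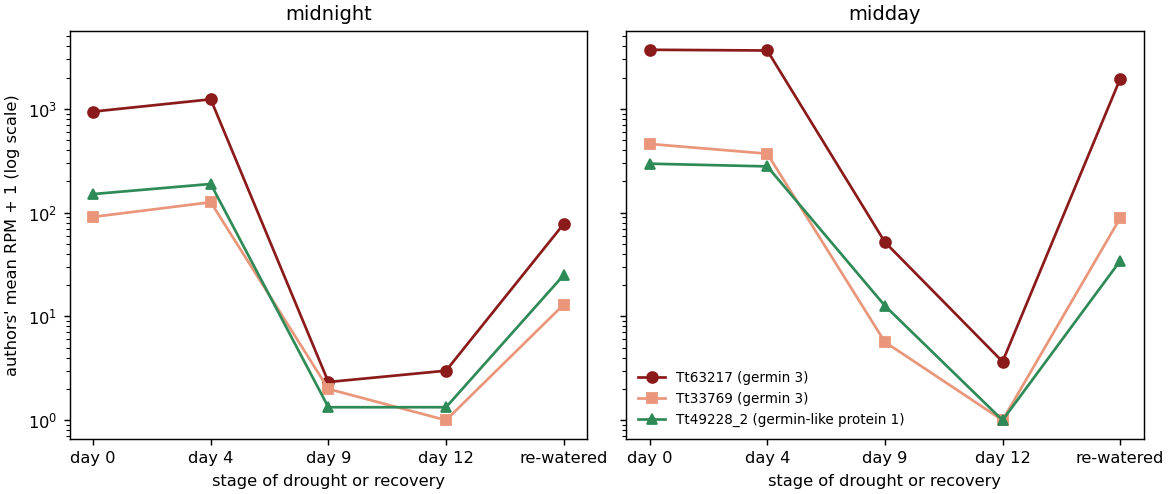
Authors' mean RPM plus 1 (log axis) of the 3 contigs of the pair with a mean of at least 1 RPM, by stage, at midnight (left panel) and midday (right panel). Tt63217 (dark red, germin 3) lies above Tt33769 (light red, germin 3) and Tt49228_2 (green, germin-like protein 1) on days 0 and 4 and after re-watering, and all 3 are at 2.67 RPM or less on day 12.

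The loci most like the pair were ranked by the Pearson correlation of log2 CPM over the 10 group means, among 8811 tested loci with a mean of at least 10 CPM. GER3 and GLP1 were most like each other (r = 0.999), and they may share reads. Next for both came the unannotated AT4G12700 (r = 0.993 with GER3 and 0.992 with GLP1), glycosyl hydrolase 9B5 (AT1G19940, r = 0.990 and 0.991), IQ-domain 30 (AT1G18840, r = 0.988 with each) and fasciclin-like arabinogalactan protein 8 (AT2G45470, r = 0.988 and 0.987). The fasciclin-like protein, a cell wall glycoprotein, averaged 18.1 CPM at midnight on day 9, against 163 CPM on day 0, and had 82.1 CPM at midnight and 303 CPM at midday after re-watering. Glycosyl hydrolase 9B5, of a family that trims cell wall glucans, averaged 1.59 CPM at midnight on day 9, against 33 CPM on day 0, and had 15.2 CPM at midnight and 51.0 CPM at midday after re-watering. At the other end stood telomere repeat binding factor 3 (AT3G49850, r = -0.986 with GER3 and -0.985 with GLP1) and homeobox 7 (AT2G46680, r = -0.985 with each). Homeobox 7, which is induced by drought and abscisic acid in Arabidopsis, averaged 305.2 CPM at midnight on day 9, against 30.5 CPM on day 0. The points share libraries, and many loci follow the stages, so these correlations describe the pattern only.

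The other tested germin-like loci fell as well. Of 30 other germin-like loci listed, 12 were in the table and 9 had enough reads to be tested. That filter passes a low locus through the groups where it is high. The other 3 had too few reads, with AT1G18970 at 0 reads, AT5G61750 at no more than 2 reads and AT3G04150 at no more than 7 reads in a library. All 9 tested loci were called lower at midnight on day 9 (25.4% of all tested loci) and on day 12 (29.8%), with median log2 changes of -4.28 and -5.13, beside 0.01 for all tested loci in both. At midday 8 of 9 were called lower on day 9 (21% of all tested loci) and 9 of 9 on day 12 (25.7%), with medians of -2.57 and -4.63, beside 0.05 and 0.08 for all tested loci. The exception on day 9 was germin-like protein 9 (AT4G14630), at -1.76 (edgeR adjusted p = 0.0564).

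Among these the loci with a mean of at least 10 CPM were the cupin AT5G38910, germin-like protein 5 (AT1G09560) and germin-like protein 9 (AT4G14630). AT5G38910 had 6.57, 6.44 and 5.06 CPM at midnight on day 9, against 107.4, 175.8 and 159.7 CPM on day 0, a log2 change of -4.61 (edgeR adjusted p = 1.2e-05). Germin-like protein 5, which lies at plasmodesmata in Arabidopsis (AT1G09560), had 4.54, 3.49 and 3.91 CPM on day 9, against 42.1, 56.1 and 134.8 CPM on day 0 (-4.28). Germin-like protein 9 had 2.87, 1.74 and 2.64 CPM on day 9, against 14.4, 25.6 and 51.4 CPM on day 0 (-3.64). In none of the 3 did a day 9 library reach the lowest of day 0. Germin-like protein 10 (AT3G62020) had no reads in the 3 midday libraries of day 12, which makes it at least 67.8-fold lower than on day 0, with 3 counts over the group as the floor.

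**Figure D5:**
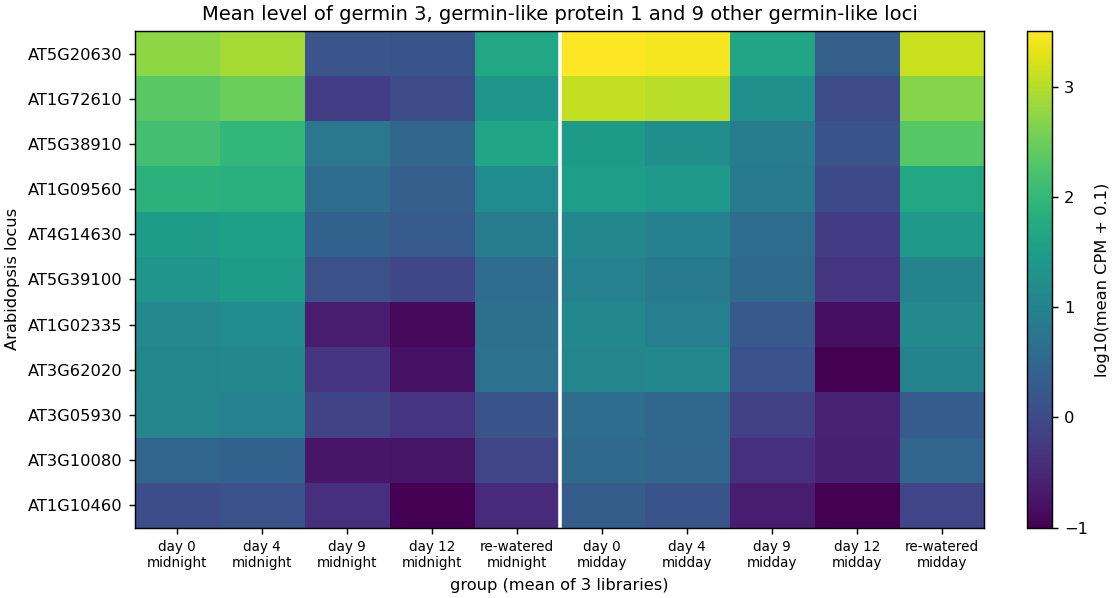
Mean level of germin 3 (AT5G20630), germin-like protein 1 (AT1G72610) and the 9 other tested germin-like loci in each group of 3 libraries, as log10 of mean CPM plus 0.1, with the midnight groups left of the white line and the midday groups right of it. All 11 rows darken on days 9 and 12, and the pair is brightest at midday on days 0 and 4, while AT5G38910, AT1G09560 and AT4G14630 are brighter at midnight then.

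Other germin-like loci were also compared between midnight and midday. At midnight 4 of 9 loci were called higher than at midday on day 0 (22.9% of all tested loci) and 5 of 9 on day 4 (22.4%). None was called lower by edgeR on either day, beside 21% of all tested loci on day 0 and 19.5% on day 4 (also 0 at an unadjusted p under 0.05, and 0 with DESeq2 and limma-trend). GER3 and GLP1 were called lower at midnight on day 4. Without the third day 0 midnight library the day 0 count was 1, without the second day 0 midday library it was 2, and without the second day 4 midnight library the day 4 count was 3. On day 4 AT5G38910 averaged 97.9 ± 19.1 CPM at midnight and 17.5 ± 2.83 CPM at midday (SD, n = 3 each), a log2 difference of 2.49 (edgeR adjusted p = 0.00331). Whether the pair and the other loci differ in this was not tested. On day 9, 2 of 9 were called lower at midnight (25.6%), and on day 12 none was called either way (27.2% of tested loci were called higher and 27.5% lower). At an unadjusted p under 0.05 edgeR gave 0 on day 12 in either direction, DESeq2 called 2 higher and limma-trend called 1 higher.

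After re-watering the family was called higher than on day 12 in 9 of 9 loci at midnight (22.3% of all tested loci) and 9 of 9 at midday (22.9%). Some of the 9 had 0 or few reads on day 12 and passed the filter through groups where they were high. Those loci could hardly be called other than higher than on day 12. Against day 0, all 9 were called lower at midnight (11.3%), with a median of -1.96, and 1 was called higher at midday (4.09%), with a median of 0.08. Without the third day 0 midnight library 5 were called lower at midnight. The locus higher at midday was AT5G38910, with 23.6, 65.3 and 554.6 CPM after re-watering, against 32.8, 27.5 and 26.4 CPM on day 0. The third re-watered library, lowest in GER3 and GLP1, was thus the highest in AT5G38910, and without it no locus was called higher. Between midnight and midday after re-watering 7 of 9 were called lower at midnight (23.5%), and 4 without that library.

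Reads of these loci are uncertain as to the single locus as well. The contig table gives 4 contigs for AT4G14630 and none for AT5G38910, AT1G09560 or AT5G39100 (germin-like protein 6). At midnight on day 0 the contigs of AT4G14630 summed to 1014 RPM, while the 4 loci together held 337.7 RPM in the table of loci. Of the 12 other germin-like loci, 8 had no contig. The counts out of 9 tested loci above may therefore not stand for separate Talinum genes.

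Genes tied to the known roles of germins did not move as one group. GRP7 (AT2G21660), the RNA-binding protein upstream of GER3 in Arabidopsis, averaged 168.9 CPM at midnight on day 9, against 286.8 CPM on day 0 (-0.76, edgeR adjusted p = 0.000803). It was called lower at midnight than at midday in all 5 stages, with log2 differences of -2.11, -1.86, -2.70, -3.12 and -1.89 from day 0 to re-watering. In the same order, 21%, 19.5%, 25.6%, 27.5% and 23.5% of all tested loci were called lower at midnight. Of 6 superoxide dismutases tested, 2 rose and 2 fell at midnight on day 9, when 23.2% of all tested loci were called higher and 25.4% lower (CSD3 0.46 and FSD3 0.64 higher, CSD1 -1.69 and MSD1 -0.98 lower, CSD2 0.37 and FSD1 0.26 not called). At midday on day 9, when 23.4% of all tested loci were called higher and 21% lower, 3 rose (CSD3 1.32, FSD3 1.08, FSD1 0.91) and CSD2 fell (-0.89), while CSD1 (0.09) and MSD1 (0.32) were not called. Of 3 enzymes that degrade oxalate or its product formate, 2 fell at midnight on day 9 (AAE3 -0.88, OXC -0.68, with FDH at -0.57 not called, beside 25.4% of all tested loci), and 2 rose at midday (AAE3 1.71, FDH 1.24, with OXC at -0.24 not called, beside 23.4%). Of 12 clock genes, 4 rose and 2 fell at midnight on day 9 (23.2% and 25.4% of all tested loci), and TOC1 (1.14) and ELF4 (-2.31) had the smallest adjusted p. At midday 4 rose and 1 fell (23.4% and 21%), and TOC1 (1.20) and RVE8 (0.84) had the smallest adjusted p.

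Markers of cell types moved in the same comparisons, and their part in the decline of the pair was not tested. In the comparison used for all of them, midnight on day 9 against day 0, 23.2% of all tested loci were called higher and 25.4% lower. At most 2 called genes of a list are named, those of smallest adjusted p. Some listed markers had no row in the table of loci: 1 of 5 for cell division, 2 of 5 for mesophyll and 1 of 7 for guard cells. The same held for 2 of 4 epidermis and 1 of 4 phloem markers. At midnight on day 9, 3 of 4 cell division genes fell, among them MCM2 (-4.45) and MCM3 (-4.08), and the summed level of the list was 12.1 to 13.7 CPM, against 23.2 to 46.5 CPM on day 0. The xylem list had 3 of 4 lower, among them IRX5 (-1.86) and IRX3 (-1.75), with sums of 226.3 to 254.5 CPM on day 9 and 421.9 to 527.9 CPM on day 0. Guard cell markers had 1 of 6 higher (GORK, 3.25) and 2 lower (among them HT1, -0.75), with sums of 80.9 to 123.6 CPM on day 9 and 43.3 to 63.5 CPM on day 0. The higher sum came from GORK, which averaged 62.7 CPM on day 9 and 6.59 CPM on day 0. Most other guard cell markers had lower means on day 9. Of 3 phloem markers 1 was higher (SWEET11, 0.81) and 2 were lower (among them AHA3, -0.78), with sums of 258 to 290 CPM on day 9 and 346.4 to 549.5 CPM on day 0. Of 3 mesophyll genes only RCA was called (1.06, higher), with sums of 58350 to 78420 CPM on day 9 and 40860 to 67010 CPM on day 0. The mesophyll sum followed RCA, which averaged 34950 CPM on day 9 and 16730 CPM on day 0. The most abundant mesophyll gene of day 0 had a lower mean on day 9. Of the epidermis markers in the table, KCS10 was not called (0.32) and PDF1 had no reads in any library. Their sums were 318.5 to 433.6 CPM on day 9 and 297.2 to 323.2 CPM on day 0.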

How the data were processed

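Per the labels' protocols, polyA libraries were made with a TruSeq kit and sequenced by the authors in single reads of 150 bp, 12 libraries to a lane; bases were called with CASAVA 1.8.2, per the submitters' processing notes. Per the file headers, reads were placed by BLAT in protein space on a reduced TAIR10 reference, each at its best match, and the deposited raw counts per locus are the values tested here. The authors' RPM, a score rounded to whole numbers, equalled the count scaled to the library total, rounded, in 100% of cells. Per the file headers, the log2 changes and q-values of the authors' own comparisons come from DESeq2. For 39781 contigs a second deposited table holds group means, read as RPM by the headers of the first; how reads were placed on contigs is not given in the sources used here. The 6 paired-end libraries were not analysed here.

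Counts were tested with edgeR 4.0.16 (R 4.3.3): TMM, filterByExpr, a robust quasi-likelihood fit with 10 group coefficients over 30 libraries (20 residual degrees of freedom), two-sided, Benjamini-Hochberg adjusted within a contrast, called under 0.05. The standard error is the absolute log2 change over the square root of F. The fit was first tested on simulated data. P-values set a change against the spread between the 3 plants or pools within a group. That spread was estimated for each locus over all 10 groups together. As alternatives, scaling was set to RLE or upper quartile, the test to DESeq2 1.42.0 or limma-trend (limma 3.58.1, prior count 2), the filter to none or to 5 CPM in 3 libraries, and the threshold to 0.01. A fit of compared groups only, a replicate block and fits that left out 1 library at a time were also run.

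The 2 genes and the gene lists were chosen with earlier results of these data known. Named by rule were both genes, the 5 most and 2 least like loci, germin-like loci of at least 10 CPM, the tested members of the GRP7, superoxide dismutase and oxalate lists, and from the clock, cell division and cell type lists the 2 called loci of smallest adjusted p. AT5G39100, AT3G62020 and the loci outside the filter were named after their values were seen.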

Additional observations from a re-analysis of the deposited data

Results flagged for a closer look

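The return of GER3 after re-watering was called different between midnight and midday when set against day 4, while that of GLP1 was not. The midnight log2 change minus the midday one was -2.98 ± 0.80 for GER3 (edgeR adjusted p = 0.0227), from a comparison added after the levels had been seen. For GLP1, which may share reads with GER3, it was -2.56 ± 0.81 (edgeR adjusted p = 0.05004). GER3 had 33.1 to 76.4 CPM in the 3 re-watered midnight libraries, against 672.1 to 927.3 CPM on day 4, and 421.9 to 2224 CPM in the 3 re-watered midday libraries, against 2268 to 3158 CPM on day 4. The call for GER3 was lost when the first or second re-watered library of either time of day was left out.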

How the results depend on the processing

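All called changes of GER3 and GLP1 kept their direction under every alternative that was run. With RLE or upper quartile scaling, DESeq2, limma-trend and no filter, all 32 values kept their side of the threshold; upper quartile scaling moved the median of all loci by up to 0.13. At an adjusted p under 0.01, 3 calls were lost, those of midnight against midday on day 4 (GER3 -1.85, GLP1 -1.78) and the GER3 difference between the midnight and midday change from day 4 to re-watering (-2.98). The same difference for GLP1 was called with a filter of 5 CPM (-2.55), with the replicate block (-2.66) and with only the groups compared (-2.51). With only the groups compared the day 12 difference was called too (GER3 1.20, GLP1 1.65), and GLP1 had no value on day 12 against day 9 at midnight or on day 12 between midnight and midday, where the filter left it out. With single libraries left out, the GER3 difference ranged from -3.43 to -2.49 and that of GLP1 from -2.99 to -2.05. The replicate numbers did not pair libraries (mean residual r = 0.0024 over 135 same-number pairs, 20 of them above 0.1), and the replicate block changed no other call of the pair and no count of the family. Of the counts of other germin-like loci, an adjusted p under 0.01 left 5 lower after re-watering against day 0 at midnight, 5 higher against day 12 at midnight, 2 and 3 higher at midnight than at midday on days 0 and 4, and 1 lower on day 9. On day 12 DESeq2 and the fit of only the groups compared each called 2 germin-like loci higher at midnight, and limma-trend called 1. No filter gave 1 higher at midnight on day 9. Only the groups compared gave 4 lower at midnight after re-watering, 2 higher at midnight on day 0 and, like limma-trend, 0 higher at midday after re-watering. With single libraries left out, the germin-like counts ran from 1 to 5 (day 0, higher at midnight), 3 to 5 (day 4), 1 to 2 lower and 0 to 1 higher (day 9), 5 to 9 (lower at midnight after re-watering against day 0), 0 to 1 (higher at midday) and 4 to 7 (lower at midnight than at midday). AT5G38910 had 0.0025 between midnight and midday after re-watering without the third midday library, -2.79 without the first, and -2.27 with all 3. Of the contigs given for GLP1, 1 of 4 reached a mean of 1 RPM. Depth limits the levels of the pair at midnight on day 9 and at both times on day 12, which lie near the floor.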
